A study of Sus scrofa with 12 samples.

Results

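The levels of 10 genes of the oocyte were followed through 12 SMART-seq libraries of porcine (Sus scrofa) embryos. They encode 3 proteins of the zona pellucida (ZP2, ZP3 and ZP4), a pair of secreted oocyte factors (GDF9 and BMP15), 4 transcription factors of the oocyte (FIGLA, NOBOX, LHX8 and SOHLH2) and the receptor KIT. The members were the entries of the deposited count table that carry these 10 symbols. All 10 were found among 29329 genes, each once, and all 10 passed the low-count filter that left 17995 genes for testing. The embryos were made by in vitro fertilization of oocytes matured in culture, and each library was a pool of embryos. By their titles the libraries form 4 groups of 3, namely control embryos at the 2-cell (con-2c) and 4-cell (con-4c) stage, and embryos injected after fertilization with an siRNA against CCNB2, a cyclin of the G2-to-M transition, at the 2-cell (si-2c) and 4-cell (si-4c) stage. The labels call the controls blank and the study's methods call them both normal and a negative control group, so whether the controls were injected is not settled here, and a difference between si and con can include the injection.

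The zona pellucida is the glycoprotein coat around the mammalian egg. Its proteins are made by the growing oocyte, bind sperm and, after cleavage of ZP2 at fertilization, help to block further sperm. GDF9 and BMP15 are members of the TGF-beta family that the oocyte secretes and that act on the surrounding cumulus and granulosa cells. FIGLA, NOBOX, LHX8 and SOHLH2 are transcription factors of the oocyte in the ovary, and FIGLA is known for switching on the zona genes. KIT is the receptor tyrosine kinase for KIT ligand. Transcripts of these genes in a cleaving embryo are largely an inheritance from the oocyte, and maternal transcripts are removed as the embryo's own genome becomes active, which in the pig is placed around the 4-cell stage.

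The libraries held 27785233 to 39510908 counts. CCNB2 was at 464 ± 21.7 counts per 1000000 (CPM) in con-2c and 22.7 ± 5.58 in si-2c, and at 475 ± 41.9 in con-4c and 42.6 ± 3.65 in si-4c (SD, n = 3), so the knockdown left 4.88% and 8.98% of the control level. The stage labels go against each other. In all 12 libraries the tissue label gives the other stage than the title, and the groups here follow the titles. Both label sets set si-2c beside con-2c and si-4c beside con-4c, and they differ only in which of these pairs is the earlier stage, so a fall from con-2c to con-4c is a direction by title. Across all genes tested, the libraries titled si-4c lay closer to con-2c than to con-4c. Of the genes tested, 0.333% were called (edgeR adjusted p below 0.05 and at least a 2-fold difference) between si-4c and con-2c, against 19.0% between si-4c and con-4c. Similarly, 1.79% were called between si-2c and con-4c, against 12.5% between si-2c and con-2c. Genes with at least 1 count numbered 18034 to 18819 in con-2c and 18083 to 18231 in si-4c, and 21181 to 21647 in con-4c and 22105 to 23279 in si-2c. The genome activation markers summed here do not include ZSCAN4, which the study named too. Chiefly EIF1AX (listed for the EIF1A that the study named) and DPPA2, they gave a summed level of 65.6 to 72.8 CPM in con-2c, 73.7 to 89.2 in si-4c, 172 to 183 in si-2c and 327 to 366 in con-4c. Differences between si and con are given below as the labels pair them, and those across titles beside them because of this likeness.

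Levels are CPM after TMM scaling, and are compared between libraries and not between genes, since no transcript lengths were used. A member is said to rise or fall where edgeR's quasi-likelihood test gave an adjusted p below 0.05 at any fold, and to be called where the difference was also at least 2-fold. The p-values measure the spread between these libraries only. CPM are shares of a library, so the number of embryos in a pool drops out of them, whereas fewer cells of one kind within a pool and less RNA per cell of that kind cannot be told apart. The scaling bears on every direction below. With library totals in place of TMM, the median difference of all genes moved (log2, con-4c against con-2c) from 0.11 to 0.38, and that of si-2c against con-2c from 0.12 to 0.52. It moved from -0.11 to -0.37 in si-4c against con-4c and from -0.13 to -0.51 in si-4c against si-2c.

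The zona genes lie on chromosome 3 (ZP2, ENSSSCG00000007851, 24863730 to 24877522, and ZP3, ENSSSCG00000007691, 9934760 to 9944924) and chromosome 14 (ZP4, ENSSSCG00000010141, 53577138 to 53584544) of Sscrofa11.1, by the RefSeq table. ZP4 showed the widest range of the zona genes. It was at 1191, 1264 and 915 CPM in the con-2c libraries and at 491, 557 and 537 in con-4c. It was at 425, 472 and 550 CPM in si-2c and at 813, 870 and 753 in si-4c. Every con-2c library lay above every si-4c library, and every si-4c library above every con-4c and si-2c library. ZP4 fell by 1.09 ± 0.12 (log2, SE) from con-2c to con-4c (edgeR adjusted p = 1.19e-06) and was lower by 1.22 ± 0.12 in si-2c than in con-2c (adjusted p = 5.67e-07), which are the only calls of a member in the 4 comparisons within a stage or within a treatment. Both calls rest on the same con-2c libraries. With library totals the differences were -0.81 and -0.81, both still below the threshold on adjusted p but short of 2-fold. Between si-4c and con-4c ZP4 was higher by 0.62 (adjusted p = 0.000422), and between si-4c and si-2c by 0.75 (adjusted p = 9.87e-05). In the order con-2c, si-4c, con-4c, si-2c, only the middle neighbours differed. ZP4 was lower in si-4c than in con-2c by 0.47 (adjusted p = 0.0809), a difference that did pass without con-2c replicate 3 or without si-2c replicate 3 (adjusted p down to 0.00666), and con-4c and si-2c differed by 0.13 (adjusted p = 0.646).

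**Figure D1:**
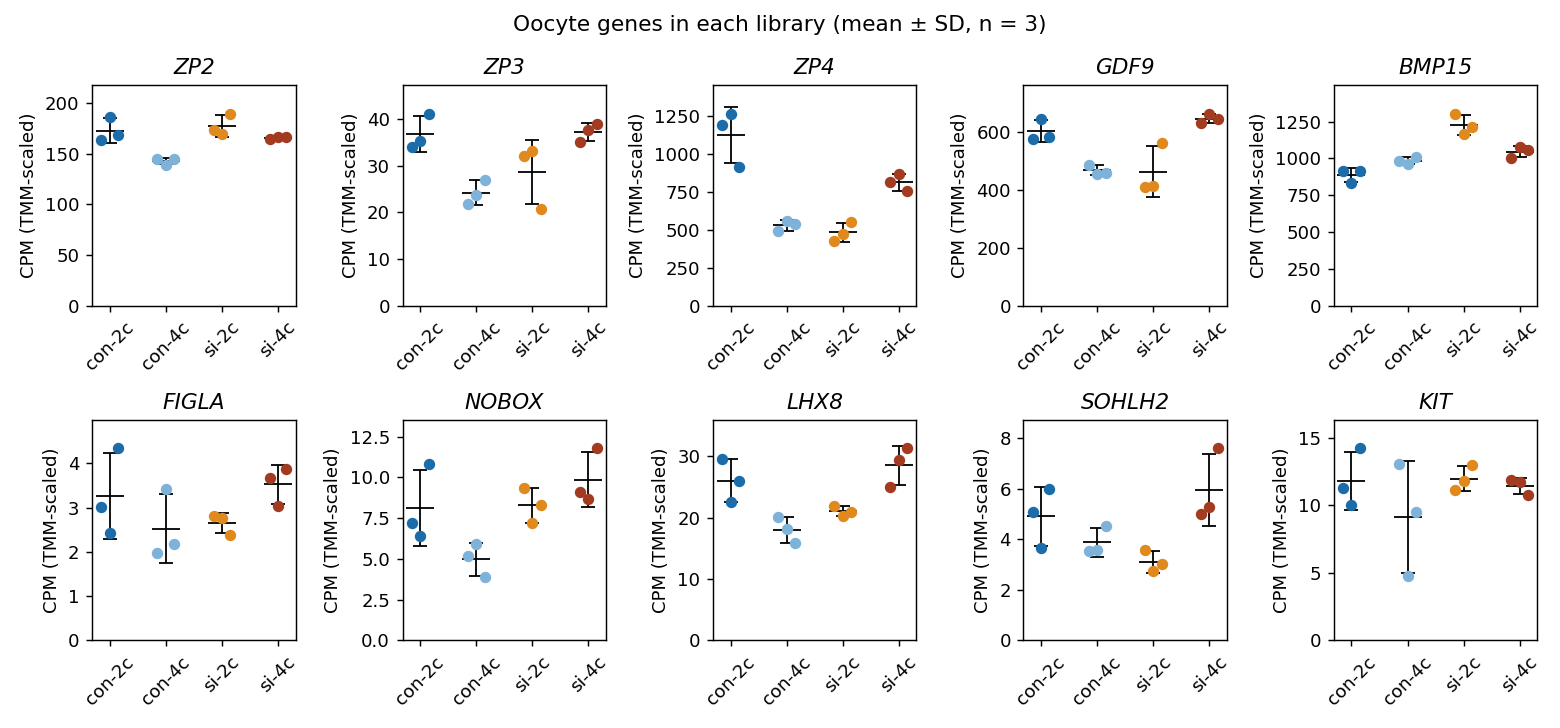
CPM (TMM-scaled, linear axes from 0) of the 10 genes in each of the 12 libraries, with points for libraries, and the group mean and SD of 3 as a bar. The con-2c points of ZP4 lie between 915 and 1264 CPM and those of con-4c between 491 and 557, while the KIT points of con-4c spread from 4.77 to 13.1.

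ZP2, the zona protein cleaved after fertilization, varied little. It was at 164, 187 and 168 CPM in con-2c, 165, 166 and 167 in si-4c, 145, 139 and 145 in con-4c, and 174, 169 and 190 in si-2c. The con-4c libraries were the lowest and did not overlap with any other group. ZP2 fell by 0.27 ± 0.07 from con-2c to con-4c (edgeR adjusted p = 0.00836), but with library totals that difference was -0.0011 (adjusted p = 0.994). It was above its con-4c level by 0.22 in si-4c (adjusted p = 0.032) with TMM and lower by 0.04 with library totals, and without any 1 of the 6 con-4c and si-4c libraries it was 0.20 to 0.23 and no longer passed (adjusted p up to 0.100). Nor did it pass with RLE (adjusted p = 0.0948) or without the low-count filter (0.0674). ZP2 overlaps an annotated lncRNA, TMEM159, in the RefSeq table, and without strand information reads of the pair cannot be told apart.

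ZP3, the third zona gene measured, was at 34.0, 35.2 and 41.1 CPM in con-2c and 35.1, 37.5 and 38.8 in si-4c. It was at 21.8, 23.8 and 27.0 CPM in con-4c and 31.9, 33.1 and 20.8 in si-2c. The con-4c libraries lay below those of con-2c and si-4c, while si-2c replicate 3 lay below all 3 con-4c libraries and apart from the other two of its group. ZP3 fell by 0.60 ± 0.15 from con-2c to con-4c (edgeR adjusted p = 0.00428) and was above its con-4c level by 0.62 ± 0.15 in si-4c (adjusted p = 0.00347). With library totals these were -0.34 (adjusted p = 0.107) and 0.36 (adjusted p = 0.0828). Between si-2c and con-2c the difference was -0.36 (95% interval -0.68 to -0.05, adjusted p = 0.0762), and 0.02 with library totals. It passed without si-2c replicate 2 (adjusted p = 0.0409), as did the difference of 0.38 between si-4c and si-2c (adjusted p = 0.0641 with all libraries and 0.0360 without that one). Without si-2c replicate 3 these differences were -0.18 (adjusted p = 0.295) and 0.19 (adjusted p = 0.246). Between si-2c and con-4c ZP3 differed by 0.24 (adjusted p = 0.446) and passed without si-2c replicate 3 (adjusted p = 0.0351).

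GDF9 (ENSSSCG00000014288, chromosome 2, 135181494 to 135184451) and BMP15 (ENSSSCG00000012310, chromosome X, 44613122 to 44620575) are close relatives that the oocyte secretes together. GDF9 was at 577, 645 and 583 CPM in con-2c, 632, 663 and 643 in si-4c, 487, 456 and 459 in con-4c, and 411, 413 and 564 in si-2c. The con-4c libraries did not overlap with con-2c or si-4c, and si-2c replicate 3 stood apart from the other two si-2c libraries. GDF9 fell by 0.36 ± 0.10 from con-2c to con-4c (edgeR adjusted p = 0.0105) and was lower by 0.38 ± 0.10 in si-2c than in con-2c (adjusted p = 0.00994), and it was above its con-4c level by 0.47 ± 0.10 in si-4c (adjusted p = 0.00179). With library totals these differences were -0.09, 0.02 and 0.21, and none passed. The si-2c difference was lost without si-2c replicate 1 or without si-2c replicate 2 (adjusted p up to 0.0614). It was also lost with only si-2c and con-2c fitted (adjusted p = 0.0547). Between si-4c and con-2c GDF9 differed by 0.10 (adjusted p = 0.824), and between si-2c and con-4c by -0.02 (adjusted p = 0.972).

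BMP15 took another course. It was at 914, 835 and 913 CPM in con-2c and 1004, 1075 and 1058 in si-4c. It was at 984, 960 and 1010 CPM in con-4c and 1303, 1166 and 1213 in si-2c. The si-2c libraries were above all other libraries and the con-2c libraries below all others. BMP15 was higher by 0.47 ± 0.07 in si-2c than in con-2c (edgeR adjusted p = 8.55e-05) and by 0.32 ± 0.07 in si-2c than in con-4c (adjusted p = 0.00961), and it was lower by 0.23 ± 0.07 in si-4c than in si-2c (adjusted p = 0.0212). The direction of these 3 differences held with library totals, at 0.86, 0.44 and -0.61. The first also passed with each library left out, whereas the second was lost without con-4c replicate 2 or si-2c replicate 1 (adjusted p up to 0.0587) and the third without si-2c replicate 1, si-4c replicate 1 or si-4c replicate 3 (adjusted p up to 0.106). From con-2c to con-4c the difference was 0.15 (adjusted p = 0.113) with TMM and 0.42 (adjusted p = 0.00079) with library totals, and DESeq2 gave 0.18 and passed (adjusted p = 0.00688). Between si-4c and con-4c it was 0.09 (adjusted p = 0.377), and -0.17 with library totals.

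A ratio of 2 genes' counts within a library does not depend on how libraries are scaled. The ratios of these members were chosen after their values were seen and are given as a description. The ratio of BMP15 to GDF9 counts was 1.48 ± 0.163 in con-2c, 1.62 ± 0.0283 in si-4c, 2.11 ± 0.0909 in con-4c, and 2.72 ± 0.518 in si-2c (SD, n = 3). Its values in the con-4c libraries (2.02 to 2.202) and in the si-2c libraries (2.15 to 3.17) overlapped, and both lay above con-2c and si-4c. The ratio of ZP4 to ZP2 counts was 6.50 ± 0.952 in con-2c, 4.89 ± 0.362 in si-4c, 3.70 ± 0.308 in con-4c, and 2.71 ± 0.233 in si-2c. No pair of groups overlapped in it. The ratio of ZP4 to ZP3 was 31.1 ± 7.63, 21.9 ± 2.18, 21.9 ± 1.82 and 18.0 ± 7.34 in the same order, with overlap between every pair of groups. The ratio of ZP2 to ZP3 was 4.74 ± 0.606, 4.47 ± 0.204, 5.95 ± 0.645 and 6.56 ± 2.23, and its spread in si-2c came from replicate 3, at 9.13 against 5.43 and 5.13. Counts of ZP4 and ZP2 thus kept no fixed ratio across the groups, nor did those of BMP15 and GDF9.

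**Figure D2:**
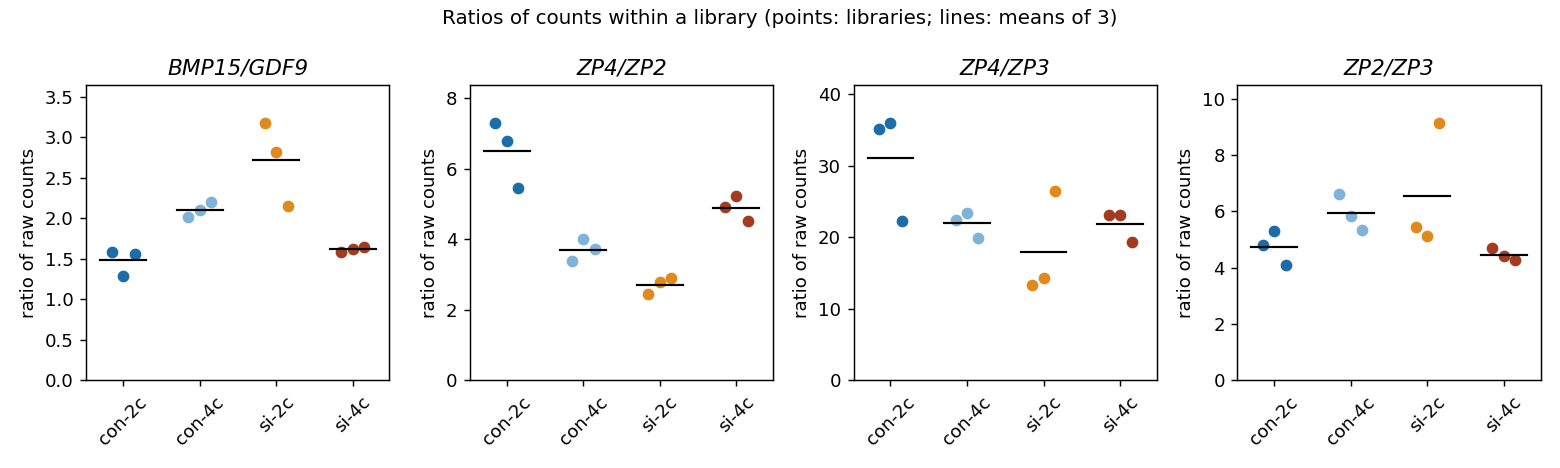
Ratio of raw counts of 2 genes within each library (linear axes from 0), with points for the 12 libraries and lines for the mean of 3. BMP15 to GDF9 has its 2 lower groups in con-2c (mean 1.48) and si-4c (1.62), and ZP4 to ZP2 falls from 6.50 in con-2c to 3.70 in con-4c.

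Of the transcription factors, LHX8 (ENSSSCG00000003778, chromosome 6, 138074673 to 138102025), a LIM-homeobox factor, was at 29.6, 22.5 and 25.9 CPM in con-2c, 25.0, 29.3 and 31.2 in si-4c, 20.1, 18.1 and 15.8 in con-4c, and 21.9, 20.2 and 21.0 in si-2c. The con-4c libraries lay below those of every other group, and si-4c overlapped only with con-2c. LHX8 fell by 0.53 ± 0.13 from con-2c to con-4c (edgeR adjusted p = 0.00382; -0.26 with library totals, adjusted p = 0.190). It was above its con-4c level by 0.66 ± 0.13 in si-4c (adjusted p = 0.000617; 0.41 with library totals, adjusted p = 0.0365). It was also above its si-2c level by 0.44 in si-4c (adjusted p = 0.0154), which was lost with library totals (0.06) and without si-2c replicate 2, si-4c replicate 2 or si-4c replicate 3 (adjusted p up to 0.0784). Between si-2c and con-2c the difference was -0.30 (95% interval -0.57 to -0.04, adjusted p = 0.0857), and 0.09 with library totals. It passed without con-2c replicate 2 (adjusted p = 0.0433). An annotated lncRNA overlaps LHX8.

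NOBOX (ENSSSCG00000024977, chromosome 9, 113348363 to 113354504), a homeobox factor of the oocyte, was low, with 120 to 394 counts a library. It was at 7.22, 6.42 and 10.8 CPM in con-2c, 9.09, 8.68 and 11.8 in si-4c, 5.17, 5.90 and 3.90 in con-4c, and 9.36, 7.21 and 8.28 in si-2c. The 3 con-4c libraries were the lowest of the 12. NOBOX fell by 0.71 ± 0.22 from con-2c to con-4c (edgeR adjusted p = 0.0186), but not without con-2c replicate 3 or con-4c replicate 3 (adjusted p up to 0.108), nor with library totals (-0.45, adjusted p = 0.168). It was above its con-4c level by 0.98 ± 0.22 in si-4c (adjusted p = 0.002; 0.73 with library totals, adjusted p = 0.0282), close to the 2-fold line. It passed that line without con-4c replicate 1, con-4c replicate 2, si-4c replicate 1 or si-4c replicate 2. Between si-2c and con-4c the difference was 0.73 ± 0.22 (adjusted p = 0.0525; 0.0390 with library totals), and it passed without con-2c replicate 2 or con-2c replicate 3 (adjusted p down to 0.0221). It also passed with DESeq2 (0.0213), without the filter (0.0243) and with these 2 groups alone (0.0322). It did not pass with RLE (0.0538) or the replicate block (0.0824).

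SOHLH2 (ENSSSCG00000026164), a basic helix-loop-helix factor, was at 5.06, 3.65 and 5.995 CPM in con-2c, 4.98, 5.26 and 7.59 in si-4c, 3.52, 3.58 and 4.52 in con-4c, and 3.56, 2.73 and 3.004 in si-2c. The si-4c libraries lay above all con-4c and si-2c libraries. SOHLH2 was above its si-2c level by 0.94 ± 0.24 in si-4c (edgeR adjusted p = 0.00698), but this was lost without si-4c replicate 3 (adjusted p = 0.0543) and with library totals (0.56, adjusted p = 0.106). It was lower by 0.66 ± 0.24 in si-2c than in con-2c at an adjusted p of 0.049, which was lost in 10 of the 12 fits that left out a library (adjusted p up to 0.198). It was also lost with RLE (adjusted p = 0.0526), without the filter (0.0657), with these 2 groups alone (0.0748) and with library totals (0.449). From con-2c to con-4c the difference was -0.34 (95% interval -0.85 to 0.17, adjusted p = 0.306), and between si-4c and con-4c it was 0.62 (adjusted p = 0.0541), which passed without con-2c replicate 2, con-2c replicate 3 or si-4c replicate 1 (adjusted p down to 0.0421).

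FIGLA (ENSSSCG00000008321, chromosome 3, 71709580 to 71723760), a basic helix-loop-helix factor, was the member with the fewest counts, 60 to 141 a library. It was at 3.02, 2.44 and 4.34 CPM in con-2c, 3.66, 3.04 and 3.88 in si-4c, 1.97, 3.41 and 2.18 in con-4c, and 2.80, 2.76 and 2.38 in si-2c. The groups overlapped in every pair except si-4c with si-2c. None of its differences passed the test. From con-2c to con-4c it was -0.37 with a 95% interval of -0.97 to 0.22 (adjusted p = 0.339), so at these counts a large fall and no change could not be distinguished.

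KIT (ENSSSCG00000008842, chromosome 8, 41402334 to 41492306) was at 11.3, 10.01 and 14.2 CPM in con-2c, 11.8, 11.7 and 10.8 in si-4c, 13.1, 4.77 and 9.52 in con-4c, and 11.2, 11.8 and 13.0 in si-2c. The con-4c libraries ranged from 144 to 397 counts and overlapped with all other groups, whose means were 11.4 to 11.98 CPM. KIT passed no test. The con-4c against con-2c difference of -0.37 (95% interval -0.90 to 0.15, edgeR adjusted p = 0.272) turned on single con-4c libraries. It was -0.73 and passed without con-4c replicate 1 (adjusted p = 0.0317), and was -0.07 without con-4c replicate 2 (adjusted p = 0.827). Likewise the si-4c against con-4c difference of 0.33 (adjusted p = 0.338) was 0.68 without the first of these and passed (adjusted p = 0.0422), and was 0.02 without the other (adjusted p = 0.948).

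Set side by side, from con-2c to con-4c, 6 of the 10 members fell and none rose at any fold in edgeR's test (ZP2, ZP3, ZP4, GDF9, NOBOX and LHX8), where 15.1% of all genes tested fell and 20.7% rose (35.8% in all). In DESeq2 the same 6 passed as lower and BMP15 as higher. Only 1 member, ZP4, was called, against 17.7% of all genes. The 10 members had a median difference of -0.37, and all genes one of 0.11. With library totals the medians moved together, so that the members lay 0.48 below the median of all genes with TMM and 0.49 below it with library totals, but then ZP4 alone passed as lower and BMP15 passed as higher. In all, 7 members had no overlap between the groups, where 48.6% of all genes had none.

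Against con-2c, 3 members were lower in si-2c (ZP4, GDF9 and SOHLH2) and 1 was higher (BMP15), where 12.3% of all genes were lower and 16.6% higher (29.0% in all). The members' median was -0.30 and that of all genes 0.12. With library totals these medians were 0.08 and 0.52, and 2 of the 10 differences were below 0 where TMM gave 6. Without con-2c replicate 3 the members' median was -0.16. With library totals, ZP4 was lower and ZP2 and BMP15 were higher, ZP2 by 0.44 (adjusted p = 0.000747) where TMM gave 0.04. In all, 6 members did not overlap between these groups, where 41.7% of all genes did not. The con-2c libraries are shared with the comparison of con-4c against con-2c.

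Against con-4c, 6 members were higher in si-4c (ZP2, ZP3, ZP4, GDF9, NOBOX and LHX8) and none lower, where 15.1% of all genes were higher and 21.7% lower (36.8% in all), and no member was called, where 19.0% of all genes were. The members' median was 0.55 and that of all genes -0.11, and 7 members did not overlap, where 50.9% of all genes did not. With library totals ZP4, NOBOX and LHX8 still passed as higher, and the distance between the medians was 0.66 with TMM and 0.67 with library totals. The con-4c libraries are shared with the comparison of con-4c against con-2c. Between si-4c and si-2c, 4 members were higher (ZP4, GDF9, LHX8 and SOHLH2) and 1 lower (BMP15), where 12.1% of all genes were higher and 16.9% lower (28.9% in all), and none was called, where 13.3% of all genes were. The libraries of 8 members did not overlap, where those of 42.8% of all genes did not. With library totals, ZP4 was higher and ZP2 (-0.48) and BMP15 lower in that comparison.

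**Figure D3:**
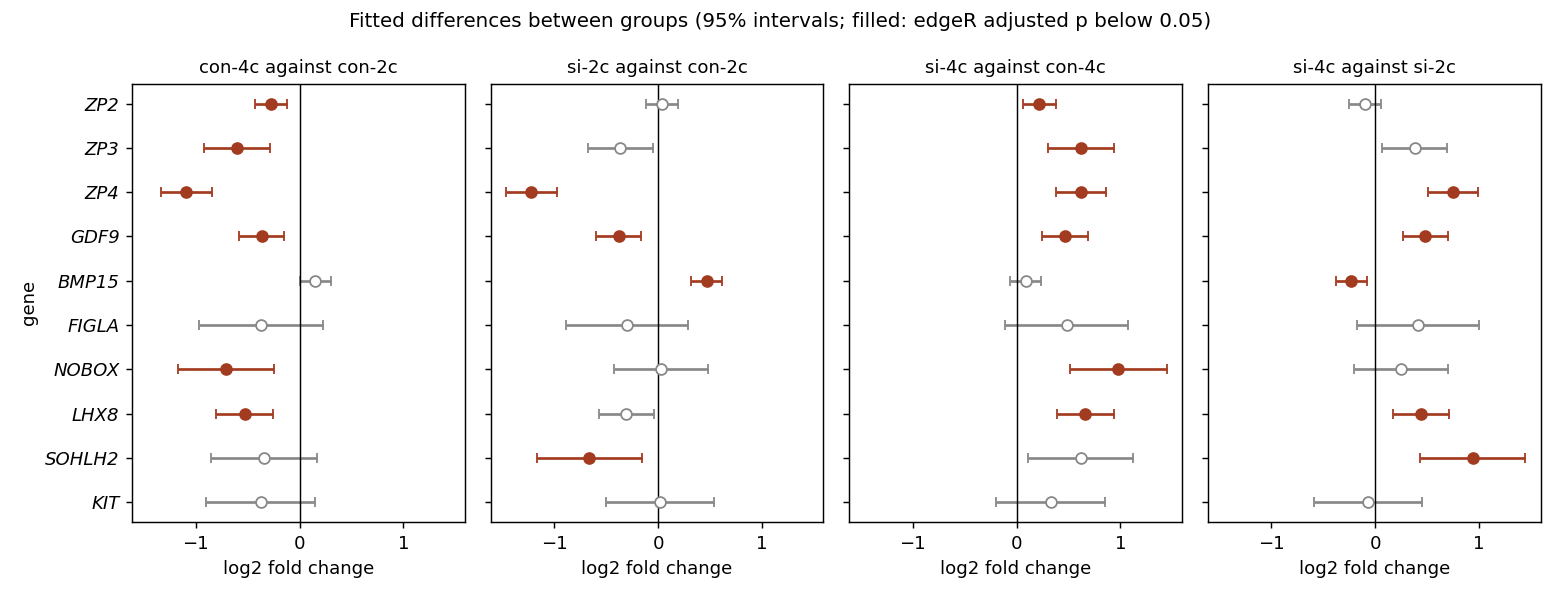
Log2 fold change of each gene between groups with TMM scaling, with 95% intervals as lines and filled points where edgeR's adjusted p is below 0.05. Filled points lie below 0 for 6 genes in con-4c against con-2c and above 0 for 6 genes in si-4c against con-4c, of which ZP2 (0.22) turns to -0.04 with library totals.

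Between si-4c and con-2c none of the 10 passed edgeR's adjusted p at any fold, where 0.672% of all genes did, and the members' differences ran from -0.47 (ZP4) to 0.28 (SOHLH2). Before adjustment, 2 members, ZP4 and BMP15, were below 0.05 in edgeR's test, and DESeq2 gave both an adjusted p below the threshold. Without the low-count filter edgeR's adjusted p for ZP4 was 0.00552. Between si-2c and con-4c, 2 members were higher (ZP2 by 0.31, adjusted p = 0.0152, and BMP15) where 2.22% of all genes were higher (7.54% passed in either direction), and none was called, where 1.79% of all genes were. The ZP2 difference was lost without con-4c replicate 2 or con-4c replicate 3 (adjusted p up to 0.0768). NOBOX passed as higher in some of the other fits, as given above.

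The 2 si effects by title, si-4c against con-4c and si-2c against con-2c, were compared by an interaction term, which uses all 4 groups. The median of all genes was -0.23 with TMM and -0.88 with library totals. The term passed for 7 members, 6 positive and 1 negative, where it was positive for 18.2% and negative for 27.3% of all genes (45.5% in all). ZP4 had the highest value at 1.84 ± 0.16 (edgeR adjusted p = 8.37e-08), and SOHLH2 was at 1.28 ± 0.34 (adjusted p = 0.00548), and these 2 were called, where 32.4% of all genes were. ZP3 was at 0.98 (adjusted p = 0.00103), LHX8 at 0.97 (adjusted p = 0.000319), NOBOX at 0.96 (adjusted p = 0.0172) and GDF9 at 0.85 (adjusted p = 0.000144). BMP15 was the negative one at -0.38 (adjusted p = 0.00505). FIGLA, at 0.79 (adjusted p = 0.118), passed without con-4c replicate 2 (adjusted p = 0.0414). With library totals only ZP4 (1.17), BMP15 (-1.03) and ZP2 (-0.48) passed, and ZP2 was at 0.18 with TMM.

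**Figure D4:**
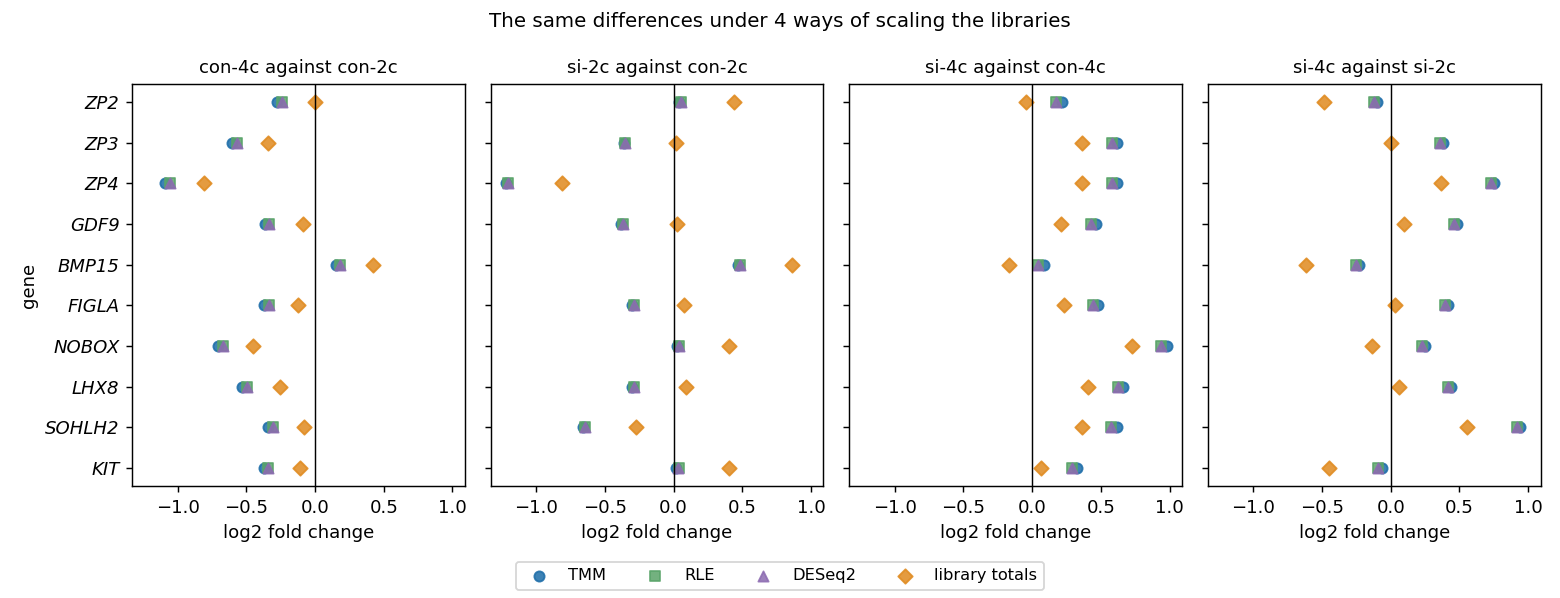
Log2 fold change of each gene in 4 comparisons with the libraries scaled by TMM, by RLE, by DESeq2 or by library totals alone. TMM, RLE and DESeq2 points lie together, and library totals move all 10 genes the same way in each comparison, so that the GDF9 value of -0.38 for si-2c against con-2c becomes 0.02.

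The partners of these genes were looked up in lists of related genes. Differences of single partners, here and in the following paragraphs, are with TMM scaling only. Their values with library totals, which moved the members' differences above, are not given here. Among 27 tested receptors, SMADs and regulators of GDF9 and BMP15 signalling, 3 were called higher and 3 lower from con-2c to con-4c, where 14.4% of all genes were called higher and 3.25% lower. Their median difference was 0.13, and that of all genes 0.11. BMPR2, the type II receptor shared by both factors, was at 41.6 ± 1.495 CPM in con-2c, 49.5 ± 6.13 in si-4c, 36.4 ± 3.23 in con-4c, and 43.4 ± 3.66 in si-2c. Of the 4 tests within a stage or treatment it passed only in si-4c against con-4c (0.45, edgeR adjusted p = 0.00309). BMPR1B, the type I receptor of BMP15, rose from 31.2 ± 3.86 CPM in con-2c to 50.8 ± 3.09 in con-4c (0.70, adjusted p = 6.77e-05) and was at 52.9 ± 5.77 in si-2c and 38.3 ± 1.99 in si-4c. TGFBR1, the type I receptor of GDF9, fell from 7.55 ± 1.81 to 3.43 ± 0.0974 CPM (-1.14, adjusted p = 0.001), and was at 6.32 ± 1.21 in si-2c and 9.26 ± 2.43 in si-4c. ID3, a transcriptional target of BMP signalling, fell from 878 ± 38.9 CPM in con-2c to 208 ± 15.2 in con-4c (-2.08, adjusted p = 3.78e-09). Its si-4c level was 786 ± 27.1 CPM, against 266 ± 67.5 for si-2c. ID2, of the same list, went the other way, with a mean of 2.29 CPM for con-2c against 9.12 for con-4c. Its si-4c mean was 0.710 CPM, against 6.87 for si-2c. ID1 was low, with group means of 0.119 to 0.725 CPM. Whether BMP signalling itself changed was not tested. BMP4, a BMP ligand, rose from 9.96 ± 1.19 to 23.9 ± 1.68 CPM (1.26, adjusted p = 5.02e-06). Its si-4c level was 8.23 ± 0.991 CPM, against 16.7 ± 2.95 for si-2c.

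Of the zona processing genes besides the members, 6 were tested and none was called from con-2c to con-4c, where 17.7% of all genes were. ASTL, the cortical granule protease that cleaves ZP2, was at 4.47 ± 1.68 CPM in con-2c, 4.38 ± 0.728 in si-4c, 4.94 ± 0.874 in con-4c, and 6.62 ± 0.842 in si-2c. It passed none of the 4 tests within a stage or treatment. Its largest difference among them, -0.60 between si-4c and si-2c, had an adjusted p of 0.0869. The single call of this list in the same 4 tests was FETUB, an inhibitor of ASTL, which was at 1.14 ± 0.593 CPM in con-4c and 2.82 ± 0.445 in si-4c (1.31, edgeR adjusted p = 0.00935), in a comparison where 19.0% of all genes were called. ZP1 is not analysed here.

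Among 15 tested other regulators of oocytes and germ cells, 2 were called higher and none lower from con-2c to con-4c (14.4% and 3.25% of all genes), with a median difference of -0.04. TAF4B, a subunit of the TFIID complex in germ cells, rose from 13.2 ± 2.62 to 28.8 ± 1.85 CPM (1.13, edgeR adjusted p = 5.78e-05), and was at 24.1 ± 4.35 in si-2c and 15.96 ± 2.93 in si-4c. SOHLH1 is not analysed here. Among 24 tested genes of KIT signalling, 2 were called higher and none lower in that comparison, with a median difference of 0.15. KITLG, the ligand of KIT, fell from 50.2 ± 7.94 to 37.3 ± 0.817 CPM (-0.43, adjusted p = 0.0052), and was at 42.1 ± 4.29 in si-2c and 56.2 ± 0.964 in si-4c. CBL, a ubiquitin ligase that acts on activated KIT, rose from 3.28 ± 1.21 to 11.2 ± 4.97 CPM (1.77, adjusted p = 0.000282).

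Cumulus cells surround the oocyte before fertilization, and were removed by the study. Of 24 listed cumulus and granulosa markers 18 were in the table, and 8 of these were below 1 CPM in every library. Their summed level was 296 to 375 CPM in con-2c, 297 to 306 in si-4c, 192 to 206 in con-4c, and 182 to 209 in si-2c. Nearly all of it was VCAN, and without it the sums were 7.51 to 8.77, 6.85 to 7.71, 19.3 to 22.3 and 14.1 to 17.0 CPM in the same order. The sum with VCAN is higher in the same groups in which ZP4 and GDF9 are higher. The sum without VCAN is lower in those groups. Of the list, 7 genes were at 0 counts in all 3 con-2c libraries (LHCGR, CYP11A1, HAS2, PTX3, GJA1, FOXL2 and COL3A1). In si-4c there were 5 (LHCGR, CYP11A1, HAS2, FOXL2 and COL3A1), in con-4c 1 (LHCGR) and in si-2c 3 (CYP11A1, HAS2 and FOXL2). Of 13 tested markers, 5 were called higher and none lower in con-4c against con-2c (median 1.71), where 14.4% of all genes were called higher and 3.25% lower (median 0.11). Between si-2c and con-2c it was likewise 5 and none (median 1.42), where it was 10.7% and 1.80% of all genes (median 0.12). The sum of 6 sperm markers was 7.28 to 16.7 CPM over all libraries, and without ODF2 it was at most 1.57. The part of such cells in the members' differences was not tested.

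Likeness to a member was measured by the Pearson correlation of log2 CPM over the 12 libraries, among 5230 candidates. The points share groups and scaling, and these values are a description. The most like ZP4 were LAPTM4A (r = 0.983), NPR3 (0.975) and ZNF207 (0.974). For BMP15 they were ZNF398 (0.939), KMT2E (0.932) and TBCEL (0.929), and for LHX8 MPZL1 (0.972), CEP78 (0.957) and ALG6 (0.948). For KIT they were lower, with CENPA (0.810), PCDHAC2 (0.809) and PLEKHA7 (0.807). Among the members, ZP4 ran with GDF9 (r = 0.815) and against BMP15 (-0.734), and NOBOX ran with LHX8 (0.775) and with FIGLA (0.743).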

How the data were processed

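The authors prepared oligo(dT)-primed, template-switched and PCR-amplified cDNA from pools of embryos, fragmented it and sequenced it paired-end. They deposited a table of raw counts per Ensembl gene, which is the unit used here. The submitters' processing notes name cutadapt 1.9, HISAT2 2.2.1, StringTie 2.1.6, DESeq2, edgeR and Sscrofa11.1. The counter, annotation release, strand use and treatment of multi-mapping reads are not given in the sources used here. Reads carry no molecular identifiers, so PCR copies count as reads.

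Here, R 4.3.3 and edgeR 4.0.16 were used (filterByExpr, TMM factors of 0.852 to 1.21, 4 group means over all 12 libraries, quasi-likelihood F test, Benjamini-Hochberg adjustment over 17995 genes). As in the study, a call was a log2 difference of 1 or more, up or down, at an adjusted p under 0.05. The biological coefficient of variation was 27.3%. Replicates of a group differed by more than counting error (chi-square per degree of freedom 7.27 to 38.7). Scripts were tested on simulated data in which few genes changed, with signs drawn at random. That test does not cover the many, mostly 1-sided changes of these data. Totals were 27785233 to 39510908 counts a library. For likeness, log2 CPM (prior count 2) of genes reaching 10 CPM was used. Alternatives were RLE scaling, library totals, no filter, DESeq2 1.42.0, the replicate block, the 2 groups alone, no minimum fold and each library left out.

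The members, the lists and the named genes were chosen with earlier results of these data known. Named were all members, CCNB2, 7 partners whatever their change, and from each list up to 2 genes called higher and 2 called lower from con-2c to con-4c with the smallest p and at least 10 CPM in the higher group. FETUB, VCAN, ODF2, ID1 and ID2 were named after their values were seen. Sequences are not shown. Gene positions come from the RefSeq table of Sscrofa11.1, which has no entry used here for SOHLH2.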

Additional observations from a re-analysis of the deposited data

Results flagged for a closer look

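In all, 7 members were set apart because the difference between si and con was not the same at the 2 titled stages, by the interaction term of edgeR's quasi-likelihood test (log2, si-4c against con-4c minus si-2c against con-2c). The term passed as positive for 18.2% and as negative for 27.3% of all genes tested. The values were 1.84 for ZP4, 1.28 for SOHLH2, 0.98 for ZP3, 0.97 for LHX8, 0.96 for NOBOX, 0.85 for GDF9 and -0.38 for BMP15. With library totals as the scale, ZP4 was at 1.17 and BMP15 at -1.03, both with an adjusted p below 0.05, and the other 5 ran from 0.19 to 0.64 and did not pass. The NOBOX term was lost when replicate 3 of con-2c, of con-4c or of si-4c was left out (adjusted p up to 0.0600). The sign of the term rests on the stage given in the titles and would be the opposite by the tissue labels, which give the other stage in all 12 libraries.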

How the results depend on the processing

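Of 1320 recomputed values of members, 1235 kept their direction and their side of the call, 52 became calls (26 without the minimum fold, 25 without 1 library and BMP15 in the interaction with library totals), 3 ceased to be calls (with library totals, ZP4 in both con-2c comparisons that call it, and SOHLH2 in the interaction) and 30 changed sign. Members called without the minimum fold numbered 6 for con-4c against con-2c (35.8% of all genes), 4 between si-2c and con-2c (29.0%), 6 between si-4c and con-4c (36.8%), 5 between si-4c and si-2c (28.9%), 2 between si-2c and con-4c (7.54%), and 7 in the interaction (45.5%). With library totals the first pair of these comparisons had 0 calls of members, where 3446 and 3086 of 17995 genes were called. Leaving out 1 library gave 0 to 1 calls in si-4c against con-4c (NOBOX) and in si-4c against si-2c (SOHLH2), and 2 to 5 in the interaction. Those fits tested 19004 to 19665 genes. Over all genes, 2959 to 3553, 2004 to 2517 and 5744 to 6122 were called in the same order.

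Signs changed with library totals for ZP3 (0.0199), GDF9 (0.0225), FIGLA (0.0746) and LHX8 (0.0931) in si-2c against con-2c, for ZP2 (-0.0419) and BMP15 (-0.17) in si-4c against con-4c, for NOBOX (-0.13) in si-4c against si-2c, for GDF9 (0.11) in si-2c against con-4c, and for ZP2 (-0.48) and KIT (-0.34) in the interaction. GDF9 in si-2c against con-4c was also at 0.0237 with only these 2 groups fitted. Library totals leave out the TMM factors, which differed by group. The factors were 0.852 to 0.962 in con-2c and 0.871 to 0.915 in si-4c. They were 1.06 to 1.09 in con-4c and 1.12 to 1.21 in si-2c. Why the factors differ by group was not tested. Leaving out 1 library changed signs only of differences that did not pass. The ranges were -0.0127 to 0.0949 (ZP2), -0.12 to 0.28 (NOBOX) and -0.0905 to 0.175 (KIT) in si-2c against con-2c, -0.0380 to 0.0783 (ZP3), -0.0626 to 0.346 (FIGLA) and -0.155 to 0.0818 (KIT) in si-4c against con-2c, and -0.182 to 0.0661 (GDF9) and -0.0752 to 0.351 (FIGLA) in si-2c against con-4c.

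Over all genes, 60 were called between si-4c and con-2c, 131 without the filter, 191 by DESeq2, 23 with these 2 groups alone and 121 without the minimum fold, and 35 (without si-4c replicate 2) to 77 (without con-2c replicate 1) with 1 library left out. Without the minimum fold, calls rose from 3182 to 6447, from 2242 to 5213, from 3414 to 6618 and from 2400 to 5203 in the first 4 comparisons above, from 322 to 1356 in si-2c against con-4c and from 5827 to 8182 in the interaction. The share of higher calls moved with library totals from 81.6% to 93.4%, from 85.5% to 98.1%, from 16.5% to 6.41% and from 11% to 1.59% in the first 4 comparisons above, from 9.01% to 21.9% in si-2c against con-4c and from 30.5% to 8.67% in the interaction.

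Samples with the same replicate number showed no common deviation (r from -0.05 to 0.03 over 18 pairs). Pairs with different numbers gave a similar range (-0.04 to 0.05 over 36 pairs). A low r cannot exclude a shared origin that moved few genes, so whether equal numbers mark a shared origin is not known. With the replicate block, members called numbered 1 for con-4c against con-2c, 1 between si-2c and con-2c and 2 in the interaction, as without it. Of 17995 genes tested with the block, 2936, 1999 and 5585 were called in the same order. In si-4c against con-4c, ZP2 no longer passed the adjusted p with the block (0.0530) and SOHLH2 did (0.0471).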
